A study of Mus musculus with 2 samples.

Results

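Messenger RNA of 10 inflammatory and growth factor cytokines was followed in Gr-1+ CD11b+ cells, myeloid cells isolated by 2 surface markers found together on neutrophils and on many monocytes. The genes were tumour necrosis factor (Tnf), 3 of the interleukin 6 family (Il6, Osm, Lif), 4 subunits of the interleukin 12 family (Il12a, Il12b, Il23a, Il27) and 2 colony stimulating factors (Csf1, Csf3). They were taken by symbol from tables of 24346 genes, and all 10 were listed in both. The cells of both groups came from BALB/c mice given 3% dextran sulfate sodium (DSS), a polymer that injures the colonic epithelium, for 6 days. One library held RNA of cells stimulated with 100 µM ATPγS, an ATP analogue that is slowly hydrolysed, for 2.5 hours (ATPγS, n = 1), and the other RNA of cells stimulated without it (control, n = 1). The Greek letters of the compound and of the unit are stored in the labels as codes of the Symbol font. The number of mice, the organ the cells came from and any pooling are not stated in those labels. None of the 10 genes differed by as much as 2-fold between the libraries. Csf3 had the highest ratio of ATPγS over control, 1.75, and Il12b the lowest, 0.580, while the most abundant members had ratios of 1.12 (Tnf), 1.02 (Csf1) and 1.10 (Il6).

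With 1 library per condition the differences have no replicate check, no p-value was computed, and higher or lower describes the listed values. Levels are FPKM, fragments scaled to transcript length and to the mapped fragments of the library, so genes can be set side by side within a library. The depth read from the values was 2848000 fragments in the ATPγS library and 2133000 in the control. The 9 neutrophil markers measured summed to 41491 FPKM with ATPγS and 38260.5 FPKM in the control, with 6 of 9 log2 ratios above 0, 3 below and none at 2-fold. The most abundant of them, S100a8, stood at 22409.6 FPKM with ATPγS and 20604 FPKM in the control. Itgam, of CD11b itself, stood at 144 FPKM with ATPγS and 112 FPKM in the control, and the Gr-1 antigen gene Ly6c2 at 63.7 FPKM with ATPγS and 70.9 FPKM in the control. No gene was listed under the symbol Ly6g, so that Gr-1 antigen gene has no value here. Genes of other cells were also present. Of the 18311 genes averaging at least 1 FPKM over both libraries, 13.8% were at least 2-fold higher with ATPγS and 9.91% lower. In either direction that share was 32.1% at 1 to 5 FPKM and 21.5% at 5 to 20 FPKM. It was 7.86% at 20 to 100 FPKM and 5.52% at 100 FPKM or more. Counts of 0, 1 or 2 in any of these marker lists are therefore not read as a result. The 9 T and NK cell markers measured summed to 148 FPKM with ATPγS and 296 FPKM in the control (6 of 9 at least 2-fold lower, 1 higher). The 8 B cell markers summed to 902 FPKM with ATPγS and 1263 FPKM in the control (1 at least 2-fold higher, 1 lower). The 11 monocyte and macrophage markers summed to 1348 FPKM with ATPγS and 1126 FPKM in the control (1 at least 2-fold higher, 0 lower). The 8 dendritic cell markers summed to 233 FPKM with ATPγS and 220 FPKM in the control (1 at least 2-fold higher, 2 lower), most of it from Ccr7, at 181 FPKM with ATPγS and 167 FPKM in the control. The 6 markers of mast cells and basophils summed to 35.7 FPKM with ATPγS and 63.8 FPKM in the control (0 at least 2-fold higher, 2 lower), and the 8 of fibroblasts, endothelium and epithelium to 442 FPKM with ATPγS and 424 FPKM in the control (0 at least 2-fold higher, 0 lower). In such bulk samples, fewer cells of a type and less RNA per cell cannot be told apart.

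Cytokines of this kind are made in bursts. Microbial products or damage signals activate NF-κB, AP-1 and C/EBP factors, which switch on transcription, and the messages are then removed quickly by proteins such as tristetraprolin (Zfp36) and regnase-1 (Zc3h12a). TNF is the prototype inflammatory cytokine of macrophages and neutrophils. IL-6, oncostatin M and LIF signal through receptors that contain the shared chain gp130. The IL-12 family is built of pairs, with p35 and p40 forming IL-12, p19 and p40 forming IL-23, and p28 and EBI3 forming IL-27. M-CSF (Csf1) sustains monocytes and macrophages, and G-CSF (Csf3) drives the production and release of neutrophils.

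AU-rich elements of the 3′ untranslated region (UTR) are the sequences that tristetraprolin binds, and all 10 messages held the 5-base core ATTTA of such elements, which is also common in other genes. Sequences were read from GENCODE M21 transcripts (GRCm38, the assembly also called mm10). For each gene the protein-coding transcript with the longest 3′ UTR was used, 1668 bases in Il6, and shorter forms can hold fewer elements. The 9-base element TTATTTATT occurred in the 3′ UTR of 5 of 10 genes, Tnf, Lif, Il12a, Il23a and Il27, against 8.12% of the 15794 genes with a 3′ UTR and an average of at least 1 FPKM over both libraries. For each of these 5 genes, the 30 bases that hold the element and the most copies of its 5-base core are shown, with the core ATTTA in capitals.
Tnf: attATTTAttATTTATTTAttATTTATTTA
Lif: agaagcaaaggggcctttATTTAttATTTA
Il12a: gcctATTTAtATTTATTTAttttctATTTA
Il23a: agtatagatgatggttATTTAttctATTTA
Il27: agatATTTAtttcttggatATTTATTTAtt
The windows lie at chr17:35199679-35199708, minus strand (Tnf), chr11:4272033-4272062, plus strand (Lif), chr3:68698434-68698463, plus strand (Il12a), chr10:128296187-128296216, minus strand (Il23a) and chr7:126589088-126589117, minus strand (Il27). Tnf carried the densest run, with 5 cores, some of them overlapping, in 30 bases and 8 in its 3′ UTR of 764 bases.

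The other 5 genes had no 9-base element in the transcript used but held the core, with 10 copies in Il6, 6 each in Osm, Il12b and Csf3, and 4 in Csf1. Per kilobase of 3′ UTR the 10 genes ranged from 1.89 cores in Csf1 to 17.5 in Il27, with a median of 8.25, and all 10 lay above the median of 1.36 of the 15794 genes. The element was not particular to the 10 genes. It occurred in 4 of 10 further family members and partners, with a median of 2.87 cores per kilobase, and in 6 of 24 genes that act on these cytokines, with a median of 2.31. The 12 receptor genes had a median of 0.712 cores per kilobase, and 0 of 12 held the 9-base element. These are matches of letters and no measure of decay, and the genes were chosen as cytokines, a class in which such elements are well known.

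**Figure D1:**
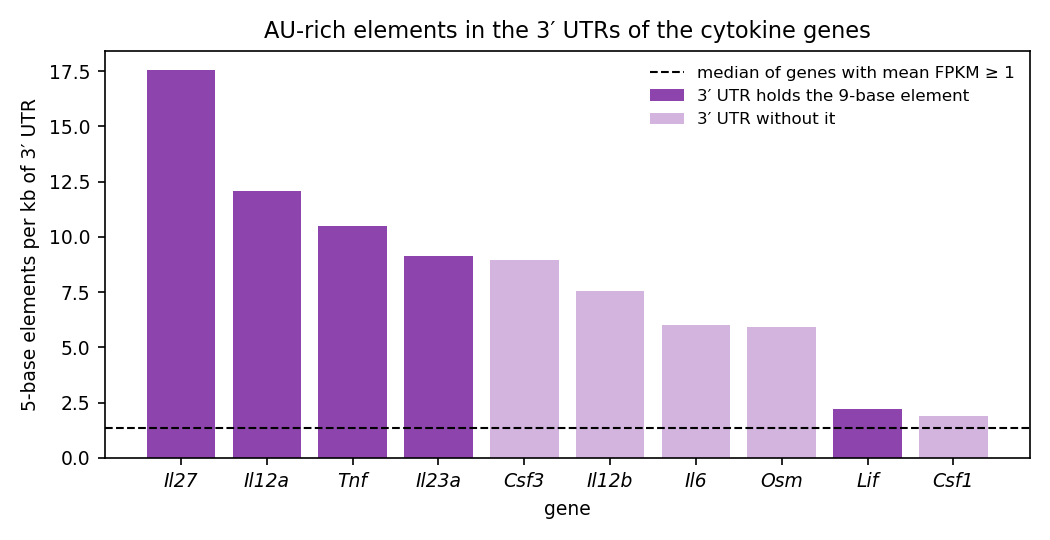
Copies of the 5-base core ATTTA per kilobase of 3′ UTR (vertical axis) in each cytokine gene (horizontal axis). Dark bars mark the 5 genes whose 3′ UTR holds the 9-base element, and the dashed line is the median of genes averaging at least 1 FPKM (1.36 per kilobase). All 10 bars stand above that line, from 1.89 in Csf1 to 17.5 in Il27.

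RefSeq promoters (GRCm38.p6) were at hand for 6 of 10 members, Tnf, Il6, Lif, Il12a with 2 starts, Il12b and Csf1. The 250 bases before each start were searched on both strands for the 10-base kappaB consensus of NF-κB, for TGANTCA (AP-1), TTGCNNAA (C/EBP) and TGACGTCA (CRE, the cyclic AMP response element), which were allowed to overlap. A kappaB match occurred in Il6, Lif and Csf1, whose windows are shown because they hold it, with the match in capitals.
Il6: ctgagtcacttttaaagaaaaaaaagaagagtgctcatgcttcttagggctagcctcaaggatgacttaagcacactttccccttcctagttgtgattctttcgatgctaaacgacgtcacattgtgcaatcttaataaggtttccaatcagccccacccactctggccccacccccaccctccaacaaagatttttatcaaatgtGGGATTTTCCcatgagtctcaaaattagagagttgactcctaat
Lif: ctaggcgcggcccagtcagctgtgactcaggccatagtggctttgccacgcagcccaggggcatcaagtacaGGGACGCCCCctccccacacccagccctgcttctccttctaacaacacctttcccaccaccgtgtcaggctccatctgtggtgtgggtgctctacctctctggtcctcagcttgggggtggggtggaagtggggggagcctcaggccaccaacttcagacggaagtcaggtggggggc
Csf1: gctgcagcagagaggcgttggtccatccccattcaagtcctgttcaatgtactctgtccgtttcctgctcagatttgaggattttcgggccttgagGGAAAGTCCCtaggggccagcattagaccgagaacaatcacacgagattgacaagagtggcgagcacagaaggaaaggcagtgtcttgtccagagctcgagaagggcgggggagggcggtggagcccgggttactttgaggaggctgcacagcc
The windows are chr5:30012864-30013113, plus strand (Il6), chr11:4257318-4257567, plus strand (Lif) and chr3:107760470-107760719, minus strand (Csf1), written 5′ to 3′ in the direction of the gene. Counted back from the start site, the match began at base -44 in Il6, -178 in Lif and -154 in Csf1. Il6 also held an AP-1 match at -249 and a C/EBP match at -128, and Lif an AP-1 match at -228. Of 32536 different upstream windows of the same length, 7.28% held the kappaB letters, 6.73% those of AP-1, 9.57% those of C/EBP and 1.56% the CRE. The windows of Tnf, Il12a and Il12b held none of the 4, which says only that these letters are not in these windows.

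In the cells, the 10 genes spanned a wide range of levels, and their order was nearly the same in both libraries. Summed, they stood at 923 FPKM with ATPγS and 851 FPKM in the control, a ratio of 1.08. Tnf, Csf1 and Il6 made up 82.8% of that sum with ATPγS and 83.0% in the control. Tnf was the highest and ranked 231 among all genes with ATPγS and 274 in the control. Csf1 (rank 353 with ATPγS and 386 in the control) and Il6 (rank 449 with ATPγS and 527 in the control) followed in both libraries, with counting intervals that did not overlap between neighbours. Below them came Csf3, Il23a and Osm in the ATPγS library and Il23a, Osm and Csf3 in the control. With ATPγS the counting intervals of Csf3 and Il23a overlapped, as did those of Il23a and Osm, and in the control those of Osm and Csf3. Il12a, Il12b and Lif lay between 8.83 and 16.1 FPKM, and Il27 was the lowest, with overlapping intervals between neighbours from Il12a or Il12b down to Il27 in both libraries.

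**Figure D2:**
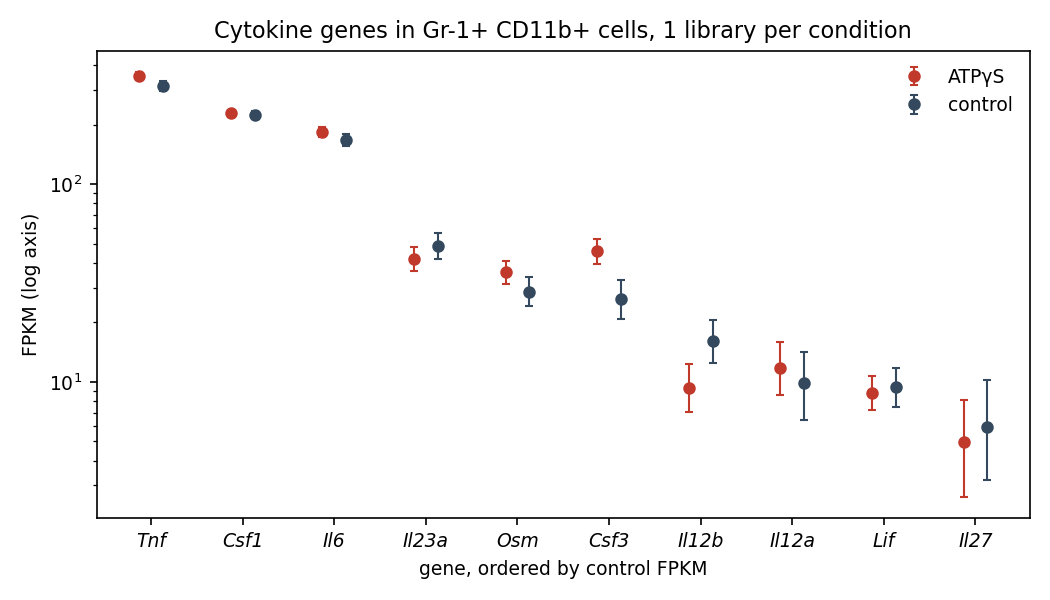
FPKM on a log axis (vertical) of each cytokine gene (horizontal) in the ATPγS library (red, left) and the control library (dark, right). Points are the listed values of 1 library each and bars are 95% counting intervals from approximate reads, which cover counting error only. Tnf, Csf1 and Il6 lie between 167 and 352 FPKM in both libraries and the other 7 genes between 4.97 and 49.0 FPKM.

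Members past 2-fold numbered 0 in either direction. The log2 ratio was taken of ATPγS over control after adding 1 FPKM to each, so that differences of low genes come out too small. Of the 18311 genes averaging at least 1 FPKM, 23.7% reached 2-fold, 13.8% as higher with ATPγS and 9.91% as lower. All 10 members averaged at least 5 FPKM, where 16.5% of 9892 genes reached 2-fold. That share was 21.5% at 5 to 20 FPKM, 7.86% at 20 to 100 FPKM and 5.52% at 100 FPKM or more. Tnf, Il6 and Csf1 averaged over 100 FPKM and Osm, Il23a and Csf3 20 to 100 FPKM, so 0 of 10 is not read as unusual. Of the members, 6 had a log2 ratio above 0 and 4 below 0, with a median of 0.08, while the 18311 genes had a median of 0.01. The median size of the log2 ratio, without its sign, was 0.21 over the 10 members, 0.51 over the 18311 genes and 0.42 over the 9892 genes. This size also fell with level, from 0.50 at 5 to 20 FPKM to 0.34 at 20 to 100 FPKM and 0.23 at 100 FPKM or more. At a threshold of 1.5-fold, 1 member was higher, Csf3, and 1 lower, Il12b, against 24.1% higher and 20.7% lower among the 18311 genes.

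**Figure D3:**
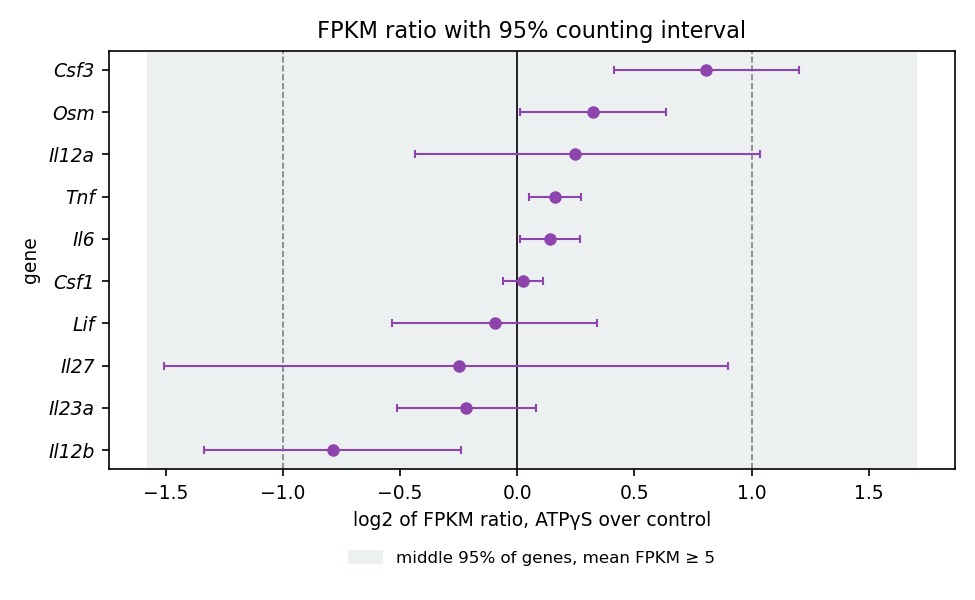
The log2 of the FPKM ratio, ATPγS over control and without a pseudocount (horizontal axis), of each cytokine gene (vertical axis), with its 95% counting interval from 1 library per condition. Dashed lines mark 2-fold, and the shaded band is the middle 95% of genes averaging at least 5 FPKM, from -1.58 to 1.70 with 1 FPKM added to each value. All 10 points lie inside the 2-fold lines, with Csf3 highest and Il12b lowest.

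Tnf stood at 352 FPKM with ATPγS and 315 FPKM in the control, from about 1643 reads with ATPγS and 1100 in the control. The ratio was 1.12 with a 95% counting interval of 1.04 to 1.21. Read numbers are approximate, and such intervals cover counting error alone. Of the 10 members, 5 had an interval that left out a ratio of 1, as did 57.0% of the 9516 genes averaging at least 5 FPKM whose length was known. With reads estimated from the coding length, the members with such an interval were 2, Il12b and Csf3. The 57.0% was computed from the longest transcript only, so it is no background for these 2. Tnf (chromosome 17, 35199381 to 35202007, minus strand, GRCm38) sits between the genes of the lymphotoxins, with Lta 1157 bases and Ltb 3060 bases away. Ltb, of the membrane-bound lymphotoxin subunit made mainly by lymphocytes, stood at 393 FPKM with ATPγS and 660 FPKM in the control, and Lta at 3.94 FPKM with ATPγS and 4.95 FPKM in the control. The level of Tnf was therefore 0.896 times that of Ltb with ATPγS and 0.476 times in the control. The T and NK markers (148 FPKM with ATPγS, 296 FPKM in the control) and the B cell markers (902 FPKM with ATPγS, 1263 FPKM in the control) had lower sums in the same library, and their part in the value of Ltb was not tested.

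In the interleukin 6 family, Il6 (chromosome 5, 30013114 to 30019981, plus strand) stood at 184 FPKM with ATPγS and 167 FPKM in the control. The ratio was 1.10, with a counting interval of 1.01 to 1.20. Osm (chromosome 11, 4236420 to 4241026, plus strand), of oncostatin M, a cytokine of neutrophils and macrophages that acts on stromal and epithelial cells, stood at 35.8 FPKM with ATPγS and 28.6 FPKM in the control (ratio 1.25, interval 1.01 to 1.55). Its neighbour Lif (chromosome 11, 4257557 to 4272514, plus strand), 16530 bases further along the same strand, stood at 8.83 FPKM with ATPγS and 9.42 FPKM in the control (ratio 0.937, interval 0.690 to 1.27). The log2 ratio of Lif was -0.08 as deposited and turned to 0.03 when the ATPγS library was rescaled to a median ratio of 0, so it has no direction here. Osm was 4.06 times as high as Lif with ATPγS and 3.04 times in the control, and the change between these quotients was 1.33-fold with an interval of 0.918 to 1.95.

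Of the interleukin 12 family, Il12b (chromosome 11, 44400063 to 44414033, plus strand), of the shared subunit p40, was the member with the lowest ratio. It stood at 9.34 FPKM with ATPγS and 16.1 FPKM in the control, from about 52 reads with ATPγS and 67 in the control, a ratio of 0.580 with a counting interval of 0.397 to 0.848. The middle 95% of the 6412 genes averaging 5 to 20 FPKM had log2 ratios of -1.68 to 1.91, and Il12b lay inside that range at -0.73. Il12a (chromosome 3, 68690644 to 68698547, plus strand), of p35, stood at 11.7 FPKM with ATPγS and 9.89 FPKM in the control, and Il23a (chromosome 10, 128296139 to 128298752, minus strand), of p19, at 42.1 FPKM with ATPγS and 49.0 FPKM in the control. Their intervals (0.739 to 2.05 for Il12a and 0.702 to 1.06 for Il23a) include a ratio of 1.

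Set against its partners, p40 was the less abundant message for IL-23 in both libraries. The level of Il12b was 0.222 times that of Il23a with ATPγS and 0.329 times in the control. Against Il12a it was 0.795 times with ATPγS and 1.63 times in the control, so p35 stood above p40 in the ATPγS library and below it in the control, with overlapping counting intervals of the 2 levels in each library. That quotient changed 0.488-fold, with a counting interval of 0.249 to 0.905, while the quotient of Il12b and Il23a changed 0.674-fold with an interval of 0.436 to 1.04. The rescalings act on both genes of a quotient alike and leave it as it is. The intervals of these quotients rest on reads from the longest transcript. They were not computed with the coding length, which assigns fewer reads to each gene and gives wider intervals.

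Il27 (chromosome 7, 126589010 to 126594941, minus strand), of p28, was the least abundant member, at 4.97 FPKM with ATPγS and 5.90 FPKM in the control, from about 14 reads with ATPγS and 13 in the control (ratio 0.842, interval 0.352 to 1.86). At this depth a 2-fold lower level lies within the interval. Its exons overlap those of Apobr, an apolipoprotein B receptor gene, which stood at 34.5 FPKM with ATPγS and 31.8 FPKM in the control. The library preparation does not mark strand, so reads in the shared stretch cannot be told apart. The partner gene Ebi3 was far more abundant, at 226 FPKM with ATPγS and 245 FPKM in the control, which is 45.5 times the level of Il27 with ATPγS and 41.6 times in the control.

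Among the colony stimulating factors, Csf3 (chromosome 11, 98701263 to 98703629, plus strand) had the highest ratio of the 10 members. It stood at 45.7 FPKM with ATPγS and 26.1 FPKM in the control, from about 184 reads with ATPγS and 79 in the control, a ratio of 1.75 with a counting interval of 1.33 to 2.30. Of the 2647 genes averaging 20 to 100 FPKM, 7.86% reached 2-fold in either direction and 27.4% reached 1.5-fold, and the middle 95% of their log2 ratios ran from -1.27 to 0.96, a range that holds the 0.78 of Csf3. Csf1 (chromosome 3, 107741048 to 107760469, minus strand), of M-CSF, stood at 228 FPKM with ATPγS and 224 FPKM in the control (ratio 1.02, interval 0.960 to 1.08), from about 2714 reads with ATPγS and 1997 in the control. Csf1 was 4.99 times as high as Csf3 with ATPγS and 8.58 times in the control. Csf2, of GM-CSF and no member here, stood at 48.0 FPKM with ATPγS and 56.1 FPKM in the control.

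Receptors of these cytokines included genes with larger differences between the libraries than any of the 10 ligand genes. Of 12 receptor genes, 11 averaged at least 1 FPKM. Among the 11, Lifr was at least 2-fold higher with ATPγS, Osmr and Il27ra were at least 2-fold lower, and the other 8 reached 2-fold in neither direction. Of the 18311 genes, 13.8% were higher and 9.91% lower, so 1 of 11 and 2 of 11 are near the shares of all genes. Lifr, Osmr and Il27ra averaged 4.18, 11.2 and 12.4 FPKM. At such levels 32.1% (1 to 5 FPKM) and 21.5% (5 to 20 FPKM) of genes reached 2-fold in either direction. The median size of the log2 ratio was 0.69 over the 11 receptor genes, against 0.21 for the 10 ligand genes. Over all genes that size fell with level, from 0.66 at 1 to 5 FPKM and 0.50 at 5 to 20 FPKM. It was 0.34 at 20 to 100 FPKM and 0.23 at 100 FPKM or more. The 2 lists were not matched by level, and 1 library per condition cannot test the difference between them. The lowest ratio was that of Il27ra, of the ligand-binding chain for IL-27, at 1.66 FPKM with ATPγS and 23.1 FPKM in the control. From about 14 reads with ATPγS and 144 in the control, it was 13.9-fold higher in the control, with an interval of 7.92 to 25.8. Il27ra is also expressed by T and NK cells. Their 9 markers had a lower sum in the ATPγS library, with 7 log2 ratios below 0 and 2 above. The part of these cells in this value was not tested.

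The chains of the gp130 receptors had ratios on both sides of 1. Il6ra, of the IL-6 binding chain, stood at 25.4 FPKM with ATPγS and 12.5 FPKM in the control, Il6st, of gp130, at 16.1 FPKM with ATPγS and 9.32 FPKM in the control, and Lifr, of the LIF receptor, at 6.07 FPKM with ATPγS and 2.30 FPKM in the control. The ratio was 2.03 for Il6ra, 1.72 for Il6st and 2.64 for Lifr, and on the log2 scale with 1 FPKM added Lifr passed 2-fold and Il6ra, at 0.97, fell just short. Il6ra passed 2-fold after either rescaling of the libraries, and Lifr did not with 5 FPKM added in place of 1. Osmr, of the oncostatin M receptor, was lower, at 5.57 FPKM with ATPγS and 16.8 FPKM in the control (ratio 0.331, interval 0.254 to 0.428). Osmr and Lifr are known mainly from stromal and epithelial cells, and the part of such cells, whose 8 markers summed to 442 FPKM with ATPγS and 424 FPKM in the control, was not tested.

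The receptors for TNF, G-CSF and M-CSF were more abundant and nearer to a ratio of 1. Tnfrsf1b, of TNF receptor 2, stood at 484 FPKM with ATPγS and 404 FPKM in the control, and Tnfrsf1a, of TNF receptor 1, at 104 FPKM with ATPγS and 121 FPKM in the control. Csf3r, which marks neutrophils, stood at 314 FPKM with ATPγS and 272 FPKM in the control, and Csf1r, which marks monocytes and macrophages, at 57.6 FPKM with ATPγS and 54.0 FPKM in the control. Of the IL-12 and IL-23 receptor chains, Il12rb2 stood at 13.3 FPKM with ATPγS and 22.0 FPKM in the control, Il23r at 0.834 FPKM with ATPγS and 1.91 FPKM in the control, and Il12rb1, the shared chain, at 0.102 FPKM with ATPγS and 1.36 FPKM in the control from about 1 read with ATPγS and 8 in the control.

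**Figure D4:**
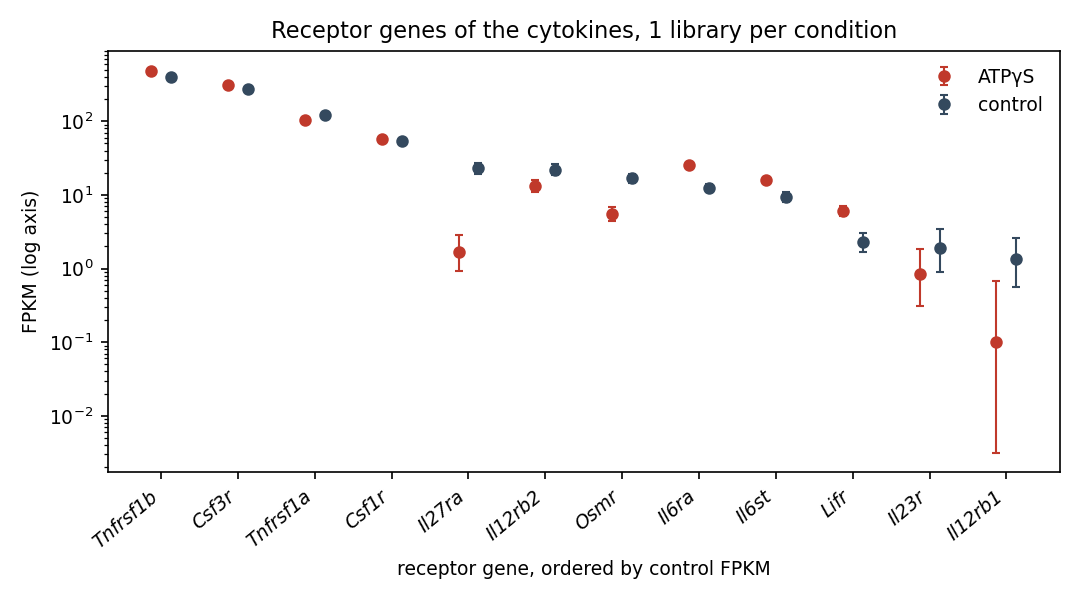
FPKM on a log axis (vertical) of the 12 receptor genes (horizontal) in the ATPγS library (red, left) and the control library (dark, right), 1 library each, with 95% counting intervals from approximate reads. Il27ra shows the widest gap, at 1.66 FPKM with ATPγS and 23.1 FPKM in the control, and Csf1r one of the narrowest, at 57.6 FPKM with ATPγS and 54.0 FPKM in the control.

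**Figure D5:**
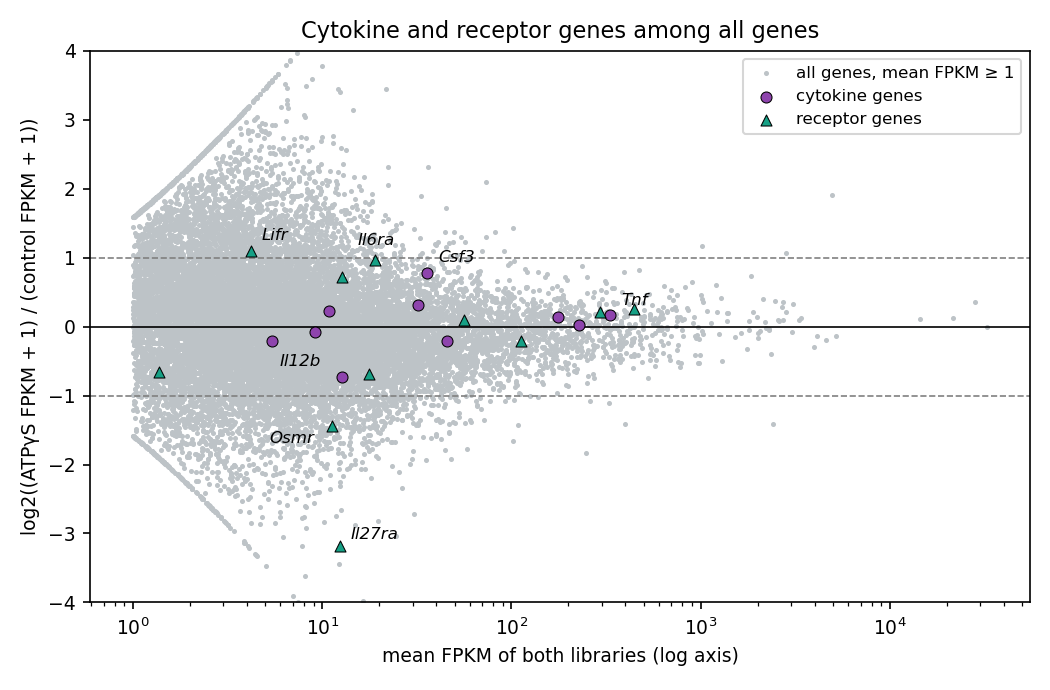
The log2 ratio with 1 FPKM added (vertical axis) against the mean FPKM of both libraries on a log axis (horizontal axis) for 18311 genes (grey), the 10 cytokine genes (circles) and the 11 receptor genes averaging at least 1 FPKM (triangles). The axis ends at 4 in both directions, which leaves out 58 genes, and dashed lines mark 2-fold. All circles lie between the dashed lines, and Lifr, Osmr and Il27ra lie outside them.

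Of 10 further members of these families and partners, 8 averaged at least 1 FPKM. None of the 8 was at least 2-fold higher with ATPγS and 1 was at least 2-fold lower, Cntf, of ciliary neurotrophic factor, at 1.71 FPKM with ATPγS and 10.7 FPKM in the control from about 5 reads with ATPγS and 24 in the control. Of the 18311 genes, 13.8% were higher and 9.91% lower by that measure, so 1 of 8 is near the share of all genes. The most abundant were Ltb and Ebi3, given above. Ltb had a log2 ratio of -0.75, and the 8 genes had a median of -0.25, with 7 of 8 below 0. Ctf1 was listed at 0 with ATPγS and had a mean FPKM under 1.

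The 24 genes that act on these cytokines, by transcription, message decay, release or feedback, all averaged at least 1 FPKM. Of them 0 of 24 reached 2-fold, beside 23.7% of the 18311 genes. That share was 21.5% at 5 to 20 FPKM, 7.86% at 20 to 100 FPKM and 5.52% at 100 FPKM or more. The lowest mean of the 24 was 10.9 FPKM (Hnrnpd), so 0 of 24 is not read as a result about these 24 genes. Their median log2 ratio was 0.11, with 15 above 0 and 9 below. The most abundant were Nfkbia, of the NF-κB inhibitor IκBα, at 2795 FPKM with ATPγS and 2168 FPKM in the control, and Cebpb, of C/EBPβ, at 804 FPKM with ATPγS and 617 FPKM in the control. Zfp36, of tristetraprolin, stood at 655 FPKM with ATPγS and 602.5 FPKM in the control, and Zc3h12a, of regnase-1, at 24.8 FPKM with ATPγS and 19.8 FPKM in the control. Both were named after their values were seen, because they are the decay proteins introduced above. Of the 2, tristetraprolin is the one described above as binding the AU-rich elements. The largest differences were those of Tyk2, a kinase of the IL-12 and IL-23 receptors, at 9.91 FPKM with ATPγS and 15.9 FPKM in the control, and Hnrnpd, of an AU-binding protein, at 8.54 FPKM with ATPγS and 13.2 FPKM in the control.

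By distance in log2(FPKM + 1) over the 2 libraries, the genes nearest to Tnf were Nr4a1 (364 FPKM with ATPγS and 315 FPKM in the control), Psap and Rnh1, at distances of 0.05, 0.07 and 0.08. Nearest to Csf3 were Ceacam1 (45.0 FPKM with ATPγS and 26.0 FPKM in the control), Sepn1 and Lmnb1, at 0.02, 0.04 and 0.05. With only 2 libraries such a likeness rests on 2 values per gene.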

How the data were processed

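Per the labels' protocols, the SMART-Seq HT kit gave full-length cDNA and the Nextera kit the libraries. The deposited values are FPKM, 1 per gene symbol and library, made by the authors. The build mm10, Cufflinks 2.2.1, SAMtools 0.1.19, Bowtie2 2.2.3 and TopHat2 2.0.13 are named by the submitters' processing notes. Annotation and options: not given in the sources used here. FPKM are not read counts, so no count test was run.

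The members, lists, motifs and thresholds were chosen with earlier results of these data known. The named genes were all 10 members, each receptor at a mean FPKM of at least 1 and, of each other list, the 2 highest and up to 2 with the largest log2 ratio. Each list of cell types is given by its sum, with few markers named. Csf2, Lta, Zfp36, Zc3h12a, Il12rb1 and Ctf1 were named outside this rule, after their values were seen. Log2 ratios used a pseudocount of 1 FPKM, a minimum mean FPKM of 1 and a threshold of 2-fold.

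Depth was the number of fragments at which FPKM times coding length came out whole within 0.05 reads, below 10 reads, in most olfactory and vomeronasal receptor genes (65.2% with ATPγS and 65.3% in the control, where chance gives 10%). Reads per gene followed from the longest GENCODE M21 transcript (95.7% of symbols matched). Intervals are 95% exact, Clopper-Pearson for ratios, Poisson for levels and conditional for quotients of 2 genes. PCR copies are not independent molecules, so they cover counting error only. The log2 ratio, the filter, the threshold and the ratio intervals were tested on data simulated with counting error alone, at set depths and lengths. The estimate of depth, the choice of length and the motif searches were not tested in this way. Python 3.11.15, NumPy 2.4.6, pandas 2.3.3, SciPy 1.17.1 and Matplotlib 3.10.9 were used.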

Additional observations from a re-analysis of the deposited data

How the results depend on the processing

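The count of cytokine genes past 2-fold stayed at 0 in both directions under pseudocounts of 0.1 and 5 FPKM, both rescalings, no filter, a mean FPKM of at least 5 and a threshold of 3-fold, and was 1 higher and 1 lower at 1.5-fold. Rescaling to a median ratio of 0, a shift of 0.13 on the log2 scale, raised the median log2 ratio of the 10 genes to 0.21, that of Tnf to 0.29 and that of Csf1 to 0.15. The other 8 genes under that rescaling, and all 10 under the other 3 settings of pseudocount and scale, stayed within their counting intervals. With coding length in place of transcript length, the intervals of 2 genes, Il12b and Csf3, left out a ratio of 1 in place of 5, because fewer reads are then assigned to each gene. After the rescalings, added after seeing the data, 5 (same sum) and 6 (median of 0) did. The share of all genes with such an interval was computed only with transcript length and without rescaling.

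Receptor genes at least 2-fold higher numbered 2 with a pseudocount of 0.1 FPKM and with either rescaling, 0 with a pseudocount of 5 FPKM, a mean FPKM of at least 5 or a 3-fold threshold, and 3 at 1.5-fold. Those lower numbered 3 with a pseudocount of 0.1 FPKM or without a filter, 4 at 1.5-fold and 1 at 3-fold. Family members and partners numbered 1 higher with a pseudocount of 0.1 FPKM, without a filter or at 1.5-fold, and 2 lower without a filter or at 1.5-fold. Of the 24 regulators, 1 was lower at 1.5-fold. Of all genes, 3.06% were higher and 2.52% lower with a pseudocount of 5 FPKM, 7.48% higher and 9.04% lower at a mean FPKM of at least 5, 24.1% higher and 20.7% lower at 1.5-fold, and 6.30% higher and 3.34% lower at 3-fold. No paired analysis was possible because each condition has 1 library. Low reads limit Il27, Il12a and Il12b most.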
